A study of Mus musculus with 6 samples.

Results

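The endothelial and blood-brain barrier genes are a list of 39 genes of brain vessels: junction proteins, growth factor receptors, transporters, surface proteins and transcription factors of endothelial cells, with 2 genes of the mural cells that wrap them. The members were taken by name and not by a cut on their values, though earlier results of these arrays were known. Of the 39, 38 were measured among 18194 genes. A gene counted as measured where the array's annotation gave a probe set (the group of short probes that reads 1 transcript) that symbol and no other, and the brightest such probe set over all arrays stood for the gene. Ly6c1, a surface antigen of brain endothelium, was the member not measured, since its 1 probe set carries 2 symbols.

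The MCAO group held 3 arrays from the subventricular zone (SVZ) of adult male C57BL/6 mice 48 h after middle cerebral artery occlusion, a model of ischemic stroke, dissected on the side of the lesion. The sham group held 3 arrays from the SVZ of adult male C57BL/6 mice 48 h after sham surgery. The SVZ is the stem cell niche along the lateral ventricle, and by its title the study asks how brain injury is signalled to the stem and progenitor cells there. The labels do not say how many mice stand behind an array, so the tests measure the spread between these arrays, which may be technical, and 3 arrays a group limit the precision.

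Brain endothelial cells line the capillaries and are sealed to each other by tight junctions of claudins and occludin, anchored inside the cell by zonula occludens proteins. They pass nutrients through dedicated carriers, pump out foreign compounds with ATP-driven exporters and suppress transport in vesicles, and together these traits form the blood-brain barrier. After a stroke the barrier is known to leak, and activated endothelium is known to display selectins and other adhesion molecules that capture leukocytes.

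Values are log2 expression values after quantile normalization. All differences are given as the MCAO mean less the sham mean on that log2 scale, with the moderated standard error (SE) of limma. A gene is said to have risen or fallen only where its Benjamini-Hochberg adjusted p over all 18194 genes was under 0.05. Both groups carry sample numbers 1, 2 and 3, and a second fit, called the blocked fit, removes what same-numbered arrays share. Same-numbered arrays deviated together from their group means, at correlations across all genes of 0.77, 0.44 and 0.48. MCAO 3 and sham 2 did so too (0.29), and the pairing was read off these same values.

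Marker genes of the dissected region were present: all 11 of 12 listed SVZ markers that were measured, among them the neuroblast gene Dcx and the stem cell gene Sox2, read brighter than the median gene. Of the 9 measured defining genes of endothelial cells 4 did (Cldn5, Kdr, Flt1 and Slco1a4), as did 24 of the 38 members. In bulk tissue, fewer endothelial cells and less RNA per endothelial cell cannot be told apart. The arrays correlated at 0.975 to 0.992 across genes, and MCAO 1 and sham 1 lay away from the remaining arrays on the first principal component, which held 40.8% of the variance. The level of 1 probe set is not strictly comparable with that of another, so differences below are taken between arrays. Brightness beside the median gene is only a rough guide to how well a transcript is seen.

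None of the 38 members passed the test in the comparison of 3 MCAO with 3 sham arrays: 0 rose and 0 fell by limma, against 1.12% of all genes that rose and 0.0165% that fell. The smallest adjusted p of a member was 0.133, that of Cav1. At an unadjusted p under 0.05, 7 members (18.4%) were higher in MCAO and 0 lower, where 6.32% and 2.46% of all genes were. In the blocked fit 3 members rose, namely Slc16a1, Vwf and Cav1, and 0 fell, or 7.89% of the 38 against 4.82% of all genes rising and 1.30% falling. All 3 are described first, and Slc16a1 and Cav1 are also expressed by cells other than endothelium.

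The differences were small throughout. They ran from −0.16 (Rgs5) to 0.59 (Slc16a1), with a median of 0.10, beside a median of −0.0064 over all genes. In MCAO 29 members (76.3%) were higher and 9 lower, against 47.7% of all genes that were higher. For each of the 38 the 95% interval lay inside a change of 1 log2 in either direction, in both fits. The widest reach was that of Slc16a1, whose interval ended at 1.996-fold, and the lowest bound was that of Rgs5 at 0.716-fold. All 3 MCAO values stood above all 3 sham values for 9 members (23.7%, against 8.44% of all genes) and below them for 0 (against 5.37%). Within same-numbered pairs, 16 members (42.1%) were higher in MCAO in all 3 pairs, against 20.0% of all genes, and 2 (5.26%) were lower in all 3, against 19.9%.

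**Figure D1:**
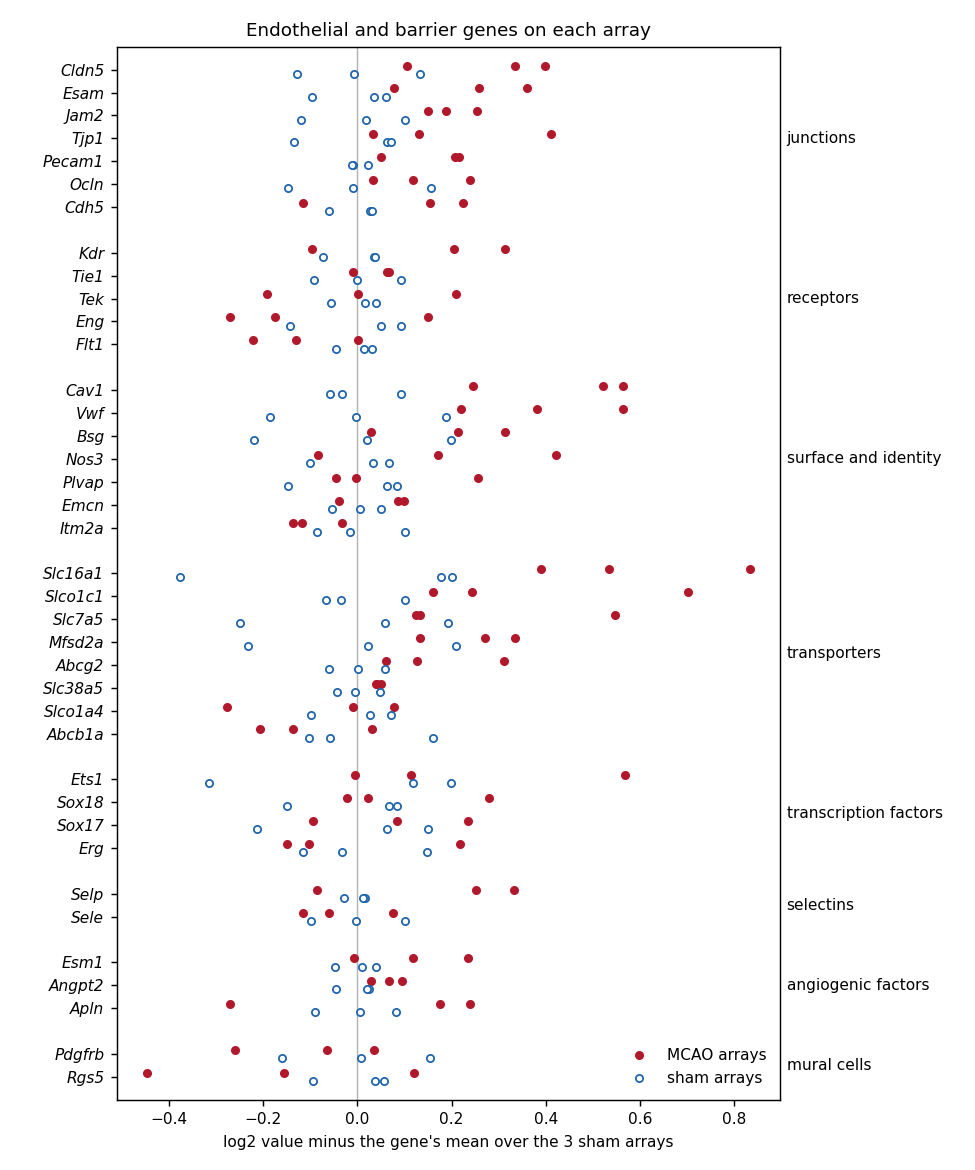
Values of the 38 members on each array, as log2 value less the gene's mean over the 3 sham arrays, with the 3 MCAO arrays as filled points above the 3 sham arrays as open points in each row, grouped by role. Most groups overlap, and the MCAO points lie right of all sham points for 9 members, among them Slc16a1, Slco1c1, Cav1 and Vwf.

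The promoters of 2 of the 3 members that rose in the blocked fit are shown because they are the stretches around the annotated starts of these transcripts. They are from RefSeq, build GRCm38.p6, where 25 of the 39 members matched the table used, and each runs 5′ to 3′ from 250 bases before the annotated start to 50 bases after it. Capitals mark GC boxes (GGGCGG, bound by Sp1 family factors) and the core of the hypoxia response element (ACGTG, bound by hypoxia-inducible factors), searched on both strands. Another motif, the ETS core CCGGAA, bound by the factor family of members Erg and Ets1, was searched too and has no match in either.
Cav1 promoter, chr6:17306085-17306384, plus strand: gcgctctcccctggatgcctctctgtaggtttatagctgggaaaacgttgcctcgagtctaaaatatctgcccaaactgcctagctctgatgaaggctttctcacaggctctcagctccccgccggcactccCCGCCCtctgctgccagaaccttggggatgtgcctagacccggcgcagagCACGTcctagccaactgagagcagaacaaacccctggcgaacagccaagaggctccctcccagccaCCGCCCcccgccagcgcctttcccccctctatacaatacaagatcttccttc
Slc16a1 promoter, chr3:104638414-104638713, plus strand: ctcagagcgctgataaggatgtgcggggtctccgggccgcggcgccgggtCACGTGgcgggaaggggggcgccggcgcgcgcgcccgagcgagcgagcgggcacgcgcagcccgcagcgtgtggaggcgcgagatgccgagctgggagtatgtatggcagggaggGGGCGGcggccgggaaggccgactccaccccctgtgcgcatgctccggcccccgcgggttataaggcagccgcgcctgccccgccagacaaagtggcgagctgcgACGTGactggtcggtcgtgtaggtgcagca
The Cav1 stretch holds 2 GC boxes and 1 ACGTG core, and that of Slc16a1 holds 1 GC box and 3 ACGTG cores, 2 of which overlap as the palindrome CACGTG. Over all 32851 promoters of this length, 35.7% hold a GC box, 19.6% an ACGTG core and 14.9% a CCGGAA. Over the 32 promoters of members, 43.8%, 18.8% and 6.25% do. A second annotated start of Cav1 holds none of these letters in its window. These matches describe letters only, and no binding was measured here.

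Slc16a1, the monocarboxylate transporter MCT1 that carries lactate and ketone bodies across the capillary wall, had the largest difference. It read 9.29, 8.85 and 8.99 on the MCAO arrays, against 8.66, 8.08 and 8.63 on the sham arrays, so the groups do not overlap and the arrays numbered 2 were lowest in both. The difference was 0.59 ± 0.18 (SE, n = 3 per group) or 1.50-fold, with an adjusted p of 0.283 that became 0.00235 in the blocked fit. Within the pairs it was 0.63, 0.77 and 0.36. A dim second probe set of Slc16a1 read −0.053. Astrocytes also express Slc16a1, and some astrocyte markers moved in the same arrays: 2 of 10 rose, 4 in the blocked fit. Their mean level ran from 10.5 to 10.6 in MCAO and from 9.96 to 10.1 in sham. The markers did not move as 1: 7 were higher and 3 lower, from −0.28 to 2.69, with a median of 0.21. Their part in the result was not tested.

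Vwf, the clotting factor that endothelial cells store for release on activation, read 7.30, 7.46 and 7.65 in MCAO, against 6.90, 7.08 and 7.27 in sham. Each MCAO value was above every sham value, and number 1 was lowest and number 3 highest in both groups. Vwf was higher by 0.39 ± 0.12 (SE, n = 3 per group; adjusted p = 0.327, and 0.00636 in the blocked fit). The 3 pairs gave 0.41, 0.38 and 0.38, nearly the same difference each time. Platelets also carry Vwf. Of 8 measured platelet markers 0 passed in either fit, with 4 higher and 4 lower in MCAO and a median of 0.013. Their mean level ran from 6.69 to 6.84 in MCAO and from 6.68 to 6.74 in sham, and 6 of the 8 read below the median gene. Pf4, a platelet chemokine also made by macrophages, had the highest difference of the 8, at 0.34 (adjusted p = 0.397). It read 6.75, 6.47 and 6.87 in MCAO and 6.47, 6.36 and 6.24 in sham. Whether platelets contribute to Vwf was not tested.

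Cav1 encodes caveolin-1, the coat protein of caveolae, the vesicles whose number brain endothelium keeps low. It read 8.34, 8.06 and 8.38 in MCAO and 7.78, 7.91 and 7.76 in sham, without overlap. The difference was 0.44 ± 0.10 (SE, n = 3 per group) or 1.36-fold (adjusted p = 0.133, and 0.0197 in the blocked fit). Pairs 1 and 3 differed by 0.55 and 0.62 and pair 2 by 0.15. In the blocked fit Slc16a1 and Vwf passed whichever pair was left out. Their adjusted p ran from 7.53e-04 to 0.00261 and from 0.00668 to 0.0346. Cav1 did not pass without pair 3 (0.116). With a pair left out so few arrays remain that p rests mostly on the variance limma pools over all genes. Passing these fits is therefore weak evidence.

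**Figure D2:**
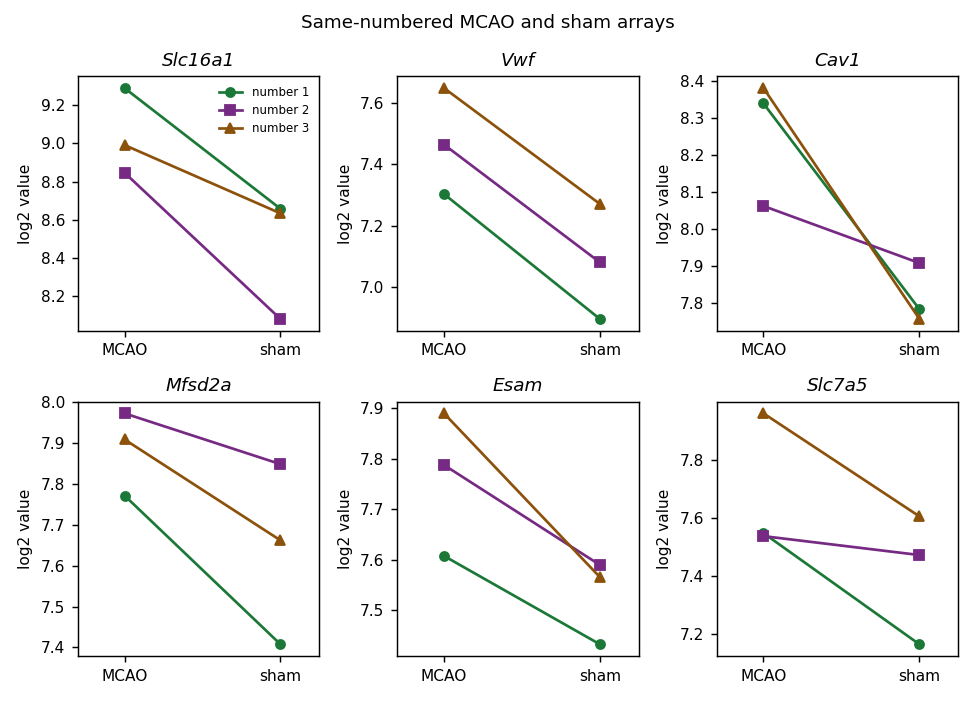
Log2 values of the 6 members with the smallest p in the blocked fit, with MCAO left of sham in each panel and a line joining arrays of the same number. Every line slopes down towards sham. The lines of Vwf are nearly parallel, and the pair numbered 2 is the flattest for Cav1, Mfsd2a and Slc7a5.

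The junction genes read slightly higher in MCAO, all 7 of them, where 47.7% of all genes did, and 0 passed in either fit. Cldn5, the main claudin of the blood-brain barrier, read 8.69, 8.40 and 8.63 in MCAO and 8.17, 8.43 and 8.29 in sham. Pairs 1 and 3 differed by 0.53 and 0.34 and pair 2 by −0.027, so the groups overlap through pair 2. Its difference was 0.28 ± 0.11 (SE, n = 3 per group; adjusted p = 0.458, and 0.144 in the blocked fit), with a 95% interval from 0.034 to 0.53. Left without the pair numbered 2, the only pair in which Cldn5 was not higher, the blocked fit called it (adjusted p = 0.00455). Leaving out that pair favours a call, so this call adds no support.

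Ocln, the tight junction protein occludin, read 7.07, 6.95 and 6.87 in MCAO, against 6.99, 6.69 and 6.83 in sham. Tjp1, the scaffold ZO-1 that ties claudins to actin, read 9.82, 9.44 and 9.54 in MCAO, against 9.47, 9.27 and 9.48 in sham. Both overlap between groups, and both were higher in MCAO in all 3 pairs, by 0.042 to 0.27 and 0.059 to 0.35. Another, dimmer probe set of Ocln had the opposite sign (−0.059).

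Among the adhesion molecules of the junction, Esam read 7.61, 7.79 and 7.89 in MCAO and 7.43, 7.59 and 7.57 in sham. Jam2, a junctional adhesion molecule, read 8.29, 8.18 and 8.22 in MCAO and 7.92, 8.05 and 8.14 in sham. Neither overlaps between the groups, with differences of 0.23 and 0.20 (adjusted p = 0.514 and 0.541). All 5 probe sets of Jam2 read higher in MCAO, and 1 of the dimmer ones, at 0.39, passed in a blocked fit over all probe sets (adjusted p = 0.0477).

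Pecam1, the platelet endothelial adhesion molecule CD31, read 6.82, 6.66 and 6.83 in MCAO and 6.64, 6.60 and 6.60 in sham, a difference of 0.16. Leukocytes express it too, and of 16 leukocyte markers measured 7 rose (10 in the blocked fit), with a mean level of 7.7 to 8.0 in MCAO and 7.12 to 7.18 in sham. Whether leukocytes contribute to Pecam1 was not tested. Cdh5, the endothelial cadherin of adherens junctions, read 6.59, 6.32 and 6.66 in MCAO and 6.46, 6.37 and 6.46 in sham, a difference of 0.088 beside a spread of 0.18 within MCAO (SD).

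The growth factor receptors showed no shared direction, and their groups overlap for all 5, as they do for 15682 of all 18194 genes. Kdr, the main signalling receptor for VEGF, read 7.45, 7.15 and 7.56 in MCAO, against 7.17, 7.28 and 7.29 in sham (difference 0.14). Flt1, a VEGF receptor that also acts as a decoy, read 7.89, 7.79 and 8.02 in MCAO, against 7.97, 8.03 and 8.05 in sham. It was lower in MCAO in each pair, by 0.085, 0.24 and 0.030, and all 4 of its probe sets had this sign, but its adjusted p was 0.851 (0.440 in the blocked fit).

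Tek, the receptor for angiopoietins, read 7.31, 6.91 and 7.10 in MCAO and 7.12, 7.05 and 7.14 in sham. Its difference of 0.0066 was the smallest in size of all members, with a 95% interval from −0.24 to 0.26. Tie1, its partner receptor, differed by 0.040 (−0.14 to 0.22), and the TGF-beta coreceptor Eng by −0.098 (−0.39 to 0.19). Tek, Tie1 and Eng each moved in opposite directions in different pairs, and a second probe set of Eng read 0.078.

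**Figure D3:**
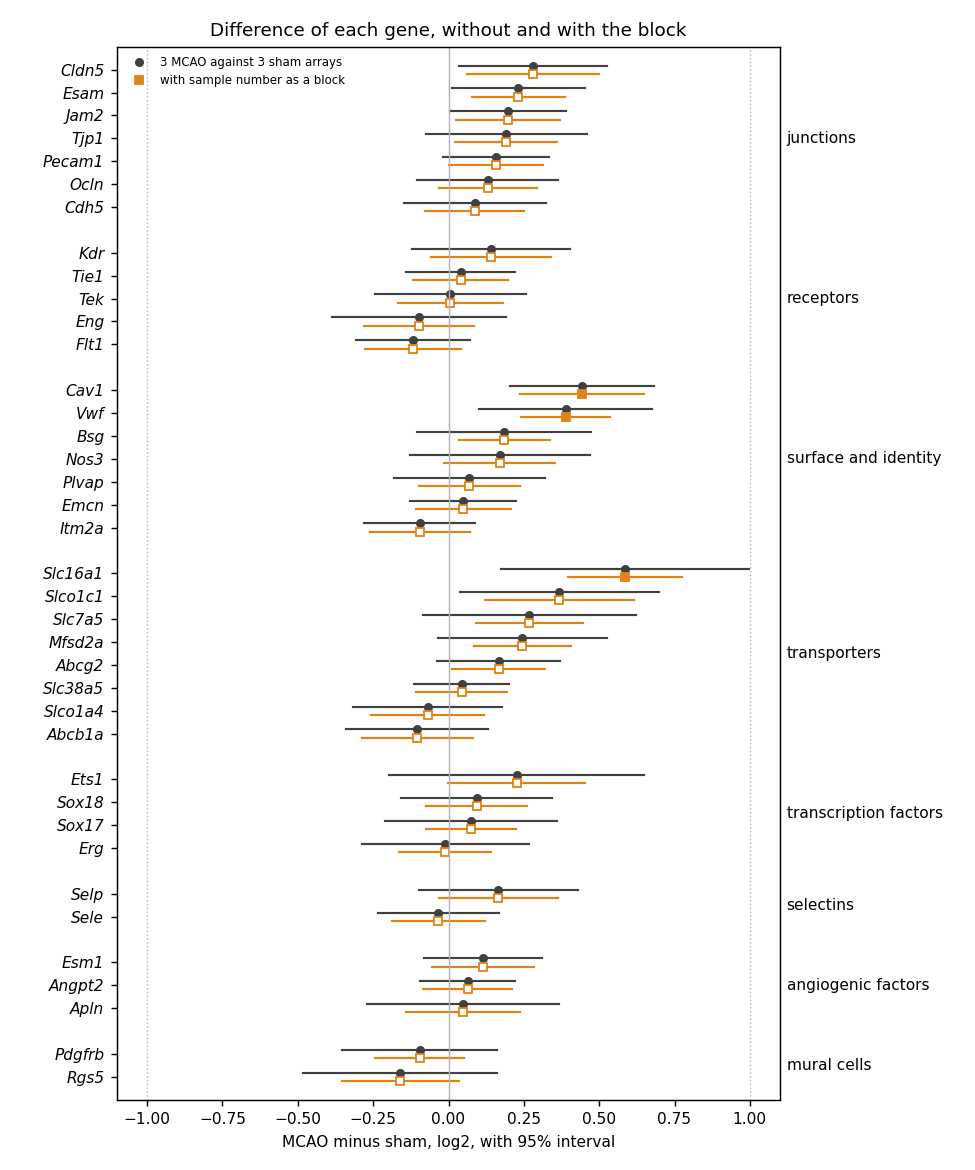
MCAO minus sham in log2 for each of the 38 members, with 95% intervals, as circles from the fit without a block and squares from the blocked fit, filled where the adjusted p passed. Dotted lines mark 1 log2 in either direction; all intervals lie between them, and the filled squares are Cav1, Vwf and Slc16a1.

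Of the 8 transporters 6 were higher in MCAO (75%, against 47.7% of all genes) and 2 lower, and only Slc16a1 passed, in the blocked fit. Slco1c1, the thyroxine carrier OATP1C1, read 10.16, 9.70 and 9.62 in MCAO and 9.39, 9.56 and 9.42 in sham. The groups do not overlap, and the MCAO array numbered 1 stood out, so that the pairs differed by 0.77, 0.14 and 0.19. Its mean difference was 0.37 ± 0.14 (SE, n = 3 per group; adjusted p = 0.477, and 0.0894 in the blocked fit). Slco1c1 is expressed by astrocytes as well.

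Slc7a5, the light chain of the large neutral amino acid carrier LAT1, read 7.55, 7.54 and 7.96 in MCAO, against 7.16, 7.47 and 7.60 in sham. Mfsd2a, the lipid transporter that holds vesicle transport down in brain endothelium, read 7.77, 7.97 and 7.91 in MCAO, against 7.41, 7.85 and 7.66 in sham. Both overlap between groups yet were higher in all 3 pairs, by 0.065 to 0.38 and by 0.12 to 0.36, with adjusted p of 0.755 and 0.668 (0.0865 and 0.0853 in the blocked fit).

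The exporters did not move together. Abcg2, the drug exporter BCRP, read 7.73, 7.48 and 7.55 in MCAO and 7.48, 7.36 and 7.42 in sham, without overlap but by 0.17 (adjusted p = 0.721). Abcb1a, which encodes P-glycoprotein, read 7.47, 7.23 and 7.30 in MCAO and 7.38, 7.34 and 7.60 in sham, a difference of −0.10, and its second probe set read 0.0066. Slco1a4, an organic anion carrier used as a marker of brain endothelium, read 8.74, 8.48 and 8.83 in MCAO and 8.65, 8.78 and 8.82 in sham. Its difference of −0.069 had an interval from −0.32 to 0.18. Slc38a5, a glutamine carrier, lay within 0.20 of no difference on its upper side and 0.11 on its lower side.

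Among the other surface and identity genes the groups overlap for all 5, as they do for 15682 of all 18194 genes. Bsg, the immunoglobulin protein basigin that escorts monocarboxylate transporters such as MCT1 to the membrane, read 10.74, 10.93 and 11.03 in MCAO, against 10.50, 10.74 and 10.91 in sham. It was higher by 0.25, 0.19 and 0.11 in the pairs and did not pass (adjusted p = 0.840, and 0.165 in the blocked fit). Nos3, the endothelial nitric oxide synthase, was higher by 0.17 and also in all 3 pairs, mostly through pair 3 (0.39).

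Plvap forms the diaphragms of fenestrated vessels and is normally scarce in barrier vessels. It read 7.10, 7.14 and 7.40 in MCAO and 7.0, 7.22 and 7.21 in sham, a difference of 0.069 with an interval up to 0.32. Emcn, an endothelial sialomucin, differed by 0.048 (−0.13 to 0.22), and Itm2a, a membrane protein enriched in brain vessels, by −0.095 (−0.28 to 0.088).

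None of the 4 transcription factors passed in either fit. Sox17 and Sox18, SOX family factors of vessel development, differed by 0.074 and 0.094, and Erg, the ETS factor that maintains endothelial identity, by −0.011. Ets1, an ETS factor of endothelium and lymphocytes, read 7.35, 6.90 and 6.78 in MCAO, against 6.98, 6.47 and 6.90 in sham. It was higher in pairs 1 and 2 by 0.37 and 0.43 and lower in pair 3 by 0.12, and its 0.23 did not pass (adjusted p = 0.886). The blocked fit called Ets1 without pair 3, its only lower pair (adjusted p = 0.0282). Leaving out that pair favours a call, so this call adds no support. The probe sets of Ets1 and Sox17 may also bind related transcripts, by their names.

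None of the 5 members that inflamed or sprouting endothelium is known to switch on (Sele, Selp, Angpt2, Esm1 and Apln) passed without the block or in the blocked fit on all pairs. Sele, E-selectin, read 5.75, 5.94 and 5.81 in MCAO and 5.87, 5.97 and 5.77 in sham, a difference of −0.033 with an interval from −0.24 to 0.17. Selp, P-selectin, read 6.55, 6.21 and 6.63 in MCAO and 6.27, 6.31 and 6.31 in sham. MCAO 1 and 3 lay above all sham arrays and MCAO 2 below them, and its 0.17 did not pass (adjusted p = 0.848). All 3 probe sets of Selp read higher in MCAO, by 0.12 to 0.17, without a call in either fit. The probe sets that stood for Sele and Selp were dimmer than the median gene, where a change in a rare transcript is hard to see.

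Angpt2, the angiopoietin released by activated endothelium, read 6.40, 6.44 and 6.47 in MCAO and 6.33, 6.40 and 6.39 in sham. The groups do not overlap, but the difference was 0.063 ± 0.068 (SE, n = 3 per group), and its dimmer probe set read −0.12. Esm1 and Apln, genes of tip cells that lead a vascular sprout, differed by 0.11 (−0.081 to 0.31) and 0.049 (−0.27 to 0.37), both with overlap and without a call. Esm1 was the dimmest member, at percentile 1.6 of brightness over all genes, so its interval may not bound a change in a rare transcript.

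The mural genes were the only role group with both members lower in MCAO. Rgs5, a regulator of G protein signalling in pericytes, read 9.96, 9.39 and 9.68 in MCAO and 9.88, 9.74 and 9.90 in sham, a difference of −0.16 ± 0.14 (SE, n = 3 per group; adjusted p = 0.904). It was lower in pairs 2 and 3 by 0.35 and 0.21, and higher in pair 1 by 0.083. All 4 of its probe sets were lower, and 1 of the dimmer ones passed in the blocked fit over all probe sets (−0.33, adjusted p = 0.0389).

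Pdgfrb, the receptor by which endothelial PDGF-B recruits pericytes, read 7.99, 8.18 and 8.28 in MCAO and 8.09, 8.25 and 8.40 in sham. It was lower in every pair, by 0.10, 0.072 and 0.12, against a spread within each group of 0.15 and 0.16 (SD), and did not pass (adjusted p = 0.942, and 0.506 in the blocked fit). Of 18 other mural markers 1 rose, the smooth muscle protein gene Tagln, with 9.35, 9.44 and 10.31 in MCAO against 7.53, 7.99 and 7.75 in sham. Tagln rose by 1.95 ± 0.25 (SE, n = 3 per group; adjusted p = 0.0127, and 0.0892 without the sham array numbered 3), while the median of the 18 was 0.030. Myofibroblasts and other activated stromal cells are known to express Tagln too.

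Other vascular genes were listed by role to set beside these 38, again with earlier results of these arrays known. Of 21 other junction genes 0 passed, with a median of 0.044. The 3 with the smallest p were Icam2, an adhesion molecule of resting endothelium (0.28), the junctional adhesion molecule F11r (0.31) and the cadherin Cdh2 (0.22), of which Icam2 and F11r passed in the blocked fit (adjusted p = 0.0376 and 0.0418). Both calls were lost in that fit on deposited values (0.0725 and 0.0514), without pair 1 (0.267 and 0.415) and without pair 3 (0.107 and 0.113), and that of Icam2 also without pair 2 (0.0514). With the mean of probe sets F11r differed by 0.12 and Cdh2 by 0.29. Of 44 other brain endothelial genes 1 rose and 0 fell, with a median of 0.061, and 6 rose in the blocked fit.

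That gene was Ctla2a, a cysteine protease inhibitor gene expressed in brain endothelium. It read 8.23, 8.12 and 7.94 in MCAO and 7.22, 7.09 and 6.79 in sham, a difference of 1.06 ± 0.13 (SE, n = 3 per group; adjusted p = 0.0108). The groups stand far apart, by more than any member's do. The leukocyte markers given above moved in the same arrays, and their part in the rise of Ctla2a was not tested. Next by p were Abcb1b, the second gene for P-glycoprotein, at 0.33 and the tetraspanin-like gene Tm4sf1 at 0.61 (adjusted p = 0.173 and 0.199, and 0.0203 and 0.00229 in the blocked fit). The blocked call of Abcb1b was lost without pair 1 (0.0704) or pair 3 (0.0545). With the mean of probe sets Abcb1b differed by 0.15 and Tm4sf1 by 0.36.

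Of 8 genes of caveolae and transcytosis 1 rose, Cav2, the partner of Cav1 in the caveolar coat. Cav2 read 9.13, 9.26 and 9.29 in MCAO and 8.24, 8.46 and 8.23 in sham, a difference of 0.92 ± 0.092 (SE, n = 3 per group; adjusted p = 0.00579). With the mean of its probe sets the difference was 0.48 (adjusted p = 0.0193). The coat genes Cavin3 and Cavin1 read 0.33 and 0.28 higher and passed only in the blocked fit (adjusted p = 0.0167 and 0.0479). Both lost the call without pair 1 (0.0784 and 0.318) or pair 3 (0.0947 and 0.212), and Cavin1 also on deposited values (0.0739). With the mean of its probe sets Cavin1 differed by 0.093. The median of the 8 was 0.065. Of 26 genes of VEGF, angiopoietin and Notch signalling and vessel matrix 1 rose, with a median of 0.089. It was Angpt1, the Tek ligand made by mural and other cells, which rose by 0.54 ± 0.086 (SE, n = 3 per group; adjusted p = 0.0331). The call was lost without MCAO 1 or 3 or any 1 sham array, at adjusted p from 0.0768 to 0.156. The matrix gene Sparc (0.62) and the basement membrane collagen Col4a1 (0.44) followed and passed only in the blocked fit (adjusted p = 0.00844 and 0.0123), Col4a1 not without pair 3 (0.0794). With the mean of probe sets Angpt1 differed by 0.34 (adjusted p = 0.0483), Sparc by 0.36 and Col4a1 by 0.40.

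Genes tied to activated endothelium moved most among the vascular lists. Of 30 measured, 28 were higher (93.3%, against 47.7% of all genes), with a median of 0.28. By the test 4 rose and 0 fell (13 rose in the blocked fit). The 4 were the oxysterol enzyme gene Ch25h (0.87), the protease inhibitor Timp1 (1.38), the cytochrome Cyp1b1 (0.46) and the leukocyte adhesion molecule Vcam1 (0.82), at adjusted p = 0.00834, 0.0118, 0.0284 and 0.0473. Ch25h and Timp1 lost their calls without sham 3 (0.0586 and 0.0841). Cyp1b1 lost its call without any 1 array (0.0699 to 0.176), and Vcam1 without MCAO 3 or any 1 sham array (0.0979 to 0.240). Vcam1 also missed the threshold on values as deposited (0.0804) and both Vcam1 and Cyp1b1 with the mean of their probe sets (0.0766 and 0.303). All 4 are also made by glia, phagocytes, mural or stromal cells. The leukocyte and astrocyte marker levels given above moved in the same arrays, and their part in these rises was not tested. Of the other marker lists, 0 of 11 perivascular fibroblast genes (1 in the blocked fit), 0 of 10 choroid plexus genes and 0 of 4 red blood cell genes passed, with medians of 0.087, 0.041 and 0.0028.

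**Figure D4:**
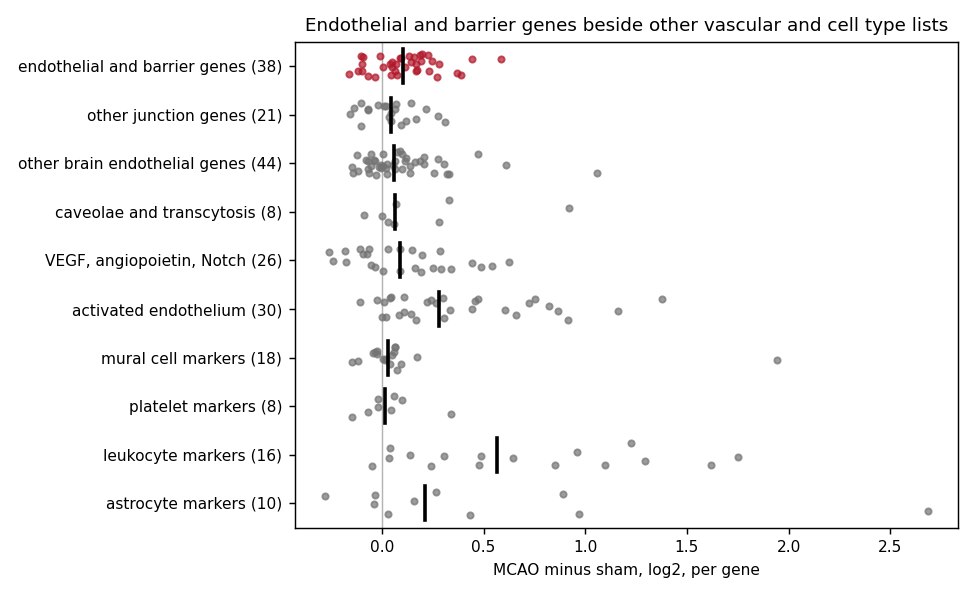
MCAO minus sham in log2, 1 point per gene, for the endothelial and barrier genes (top row, with the number of genes in brackets) and for other vascular and cell type lists, with black bars at the medians. The top row lies between −0.16 and 0.59 with a median of 0.10, while leukocyte markers have a median of 0.57 and activated endothelium genes one of 0.28.

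The deviations of same-numbered arrays correlated over the 38 members at 0.73, 0.35 and 0.27, as a description over genes that share arrays. MCAO 3 correlated more with sham 2 (0.46) than with sham 3, so over the members the shared spread did not follow the number throughout. For 9 members (23.7%, against 30.2% of all genes) the 3 numbers stood in the same order in both groups, among them Vwf, Slc16a1, Bsg, Mfsd2a and Pdgfrb. The median difference of the members was 0.17 in pair 1, −0.0076 in pair 2 and 0.097 in pair 3, and without the pair numbered 2 the blocked fit called 9 members (23.7%) higher in place of 3 and 0 lower. Calls over all genes were also more in that fit, at 6.39% higher and 3.02% lower. Without pair 1 it called 3 members higher (7.89%), where 3.08% of all genes were higher and 0.698% lower, and without pair 3 also 3, where 3.24% were higher and 0.319% lower. The 6 added without pair 2 were Cldn5, Kdr, Slco1c1, Slc7a5, Mfsd2a and Selp, at adjusted p from 0.00455 to 0.0447. Pair 2 held the lowest of the 3 differences for each of them, so leaving it out favours a call.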

How the data were processed

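Biotin-labelled total RNA of 6 SVZ samples was hybridised to 1-colour arrays, per the labels. Each array was deposited by the authors as a log2 level per probe set, from 4.80 to 14.7. For background correction, probe summary and normalization, the method is not given in the sources used here, and its effect on dim genes is unknown. Of 45101 probe sets 34958 had 1 gene symbol in the platform annotation, 932 several and 9211 none. Deposited medians lay between 6.57 and 6.59, and 90th percentiles between 8.85 and 9.06, so quantile normalization was added. Groups were compared by limma 3.58.1 in R 4.3.3 (lmFit, eBayes), 2-sided, with Benjamini-Hochberg adjustment over 18194 genes. A rank-based or permutation test of 3 against 3 cannot go below p = 0.1. The blocked fit adds the sample number as a term. The labels do not explain the numbers. All 3 correlations of same-numbered deviations exceed 0.1, so they were taken as pairs. That rule was applied to the values then tested, and MCAO 3 with sham 2 also exceeds 0.1 (0.29). The script was checked on simulated data. All members were named, and from each list of other vascular pathways those past the threshold or, where fewer than 3 passed, those with the smallest p up to 3. Cell type marker lists are given by counts and levels. Tagln and Pf4 were named from them after their values were seen. The members and lists were chosen with earlier results of these data known. Alternatives were values as deposited, median shifts, mean probe sets, a filter on dim genes, trend and robust variance, the block and arrays left out; leaving out pairs in the blocked fit was added after the data were seen.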

Additional observations from a re-analysis of the deposited data

How the results depend on the processing

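Without the block, 0 members passed in either direction in each of the 7 other settings and whichever array was left out, with 3 to 8 members higher at an unadjusted p under 0.05. With the replicate block 3 rose, on quantile-normalised and on deposited values, and 3, 9 and 3 rose without pair 1, 2 or 3; with all pairs the block changed no other member's call. The count of all genes past the threshold was 206, against 1113 with the replicate block, 817 with the block on deposited values, 688, 1712 and 648 with the block and without pair 1, 2 or 3, and 44 to 209 with 1 array left out (98 without MCAO 3, 125 without sham 1, 132 without sham 2, 44 without sham 3). The members' median difference lay between 0.062 and 0.17.

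Small differences changed sign, none with a call in the unblocked fit. With the mean of probe sets Angpt2 read −0.030 and Erg 0.013. Without both arrays numbered 1, in either fit, Apln read −0.043, Sele 0.0064, Tek −0.086 and Tie1 −0.019. In the blocked fit Emcn read −0.0037 and Slco1a4 0.048 without pair 2, and Erg 0.018 without pair 3. With 1 array left out, Apln ran from −0.047 to 0.21, Erg from −0.13 to 0.063, Plvap from −0.025 to 0.13, Sele from −0.087 to 0.017, Slco1a4 from −0.14 to 0.034, Sox17 from −0.032 to 0.16, Tek from −0.094 to 0.11 and Tie1 from −0.0061 to 0.087. Other probe sets read 0.0066 for Abcb1a, −0.12 for Angpt2, 0.078 for Eng, 0.037 for Erg, −0.059 for Ocln and −0.053 for Slc16a1. The cause was not tested. The dim probe sets limit what can be seen: 14 of 38 members read below the median gene.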
